A study of Mus musculus with 4 samples.

Results

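Mouse microglia carry a set of surface receptors that can hold back immune activation, and 7 of them are described here: Sirpa, Lair1, Lilrb4a, Pilra, Cd33, Siglech and Siglec1. The members were taken by name, as 7 of the 16342 genes listed in any of the 4 count tables, and each was listed in all 4. Cells carrying the myeloid integrin CD11b had been sorted from the corpus callosum, the main white matter tract between the hemispheres, of male C57BL/6 mice aged 13 weeks. There were 2 libraries of mice treated with cuprizone (week 5) and 2 of mice that were not treated (week 0). Cuprizone is a copper chelator that kills oligodendrocytes and strips myelin when fed. No allele or transgene is named for either group, and the labels do not say whether the 2 libraries of a group came from separate animals, so that p-values measure the spread between these libraries, which may be technical.

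These receptors act through short tyrosine motifs in their cytoplasmic tails. When an inhibitory receptor is engaged, its motif is phosphorylated and draws in the phosphatases SHP-1 (Ptpn6), SHP-2 (Ptpn11) or SHIP-1 (Inpp5d), which dampen signals from activating receptors. Sirpa binds Cd47 and is known as the receptor of the "do not eat me" signal of phagocytes. Lair1 binds collagens and complement C1q, Lilrb4a is the mouse counterpart of human LILRB4, and Pilra is a paired receptor that binds sialylated proteins. The Siglecs bind sialic acids on glycoproteins and glycolipids: Cd33 is one of them, and in humans variants at CD33 are associated with Alzheimer disease. The word inhibitory covers the members unevenly. Siglech has no inhibitory motif and signals with the activating adaptor Tyrobp, and Siglec1, the adhesion receptor sialoadhesin of macrophages, has none either. The members' proteins were not searched for motifs here. The human association is no statement on how mouse Cd33 signals.

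In all, 6559032 and 3322818 unique molecular identifiers (UMIs, each standing for 1 captured transcript) were counted in week 5 replicates 1 and 2, against 2415001 and 4631622 in week 0 replicates 1 and 2, with 1000 cell barcodes per table. The libraries differed in depth within a group: the median barcode had 6028.5 and 1924 UMIs at week 5 and 1454 and 3764.5 at week 0. Of 3707 cells kept, 3564 fell into 9 clusters called microglia-like from their marker genes (911 and 853 cells at week 5, 902 and 898 at week 0). The rest comprised 75 cells of an Mrc1-led cluster with border-associated macrophage markers, 22 of a Ttr-led choroid plexus-like and 15 of an oligodendrocyte-like cluster, and 31 unnamed cells led by S100a6. The labelled cell type, microglia and macrophages, thus had its markers in most cells. Barcodes present in more than 1 library numbered 6. The 7 members and their relatives were kept out of the genes used for clustering.

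In microglia-like cells, Lilrb4a and Siglec1 were higher at week 5 than at week 0, and the other 5 receptors did not pass the test in either direction. Counts were summed per library over these cells and compared with edgeR's quasi-likelihood test, with p-values adjusted over the 11002 genes tested, and levels are counts scaled to a library of 1000000 (CPM). All 7 members passed the filter on low counts. So 2 of 7 members rose and 0 fell, where 3.04% of all genes tested rose and 0.327% fell. No member was lower at an unadjusted p under 0.05 in edgeR or limma-voom, and 1, Siglech, was in DESeq2 (adjusted p = 0.341). The median log2 fold change was -0.09 over the 7 members and -0.02 over all genes tested.

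**Figure D1:**
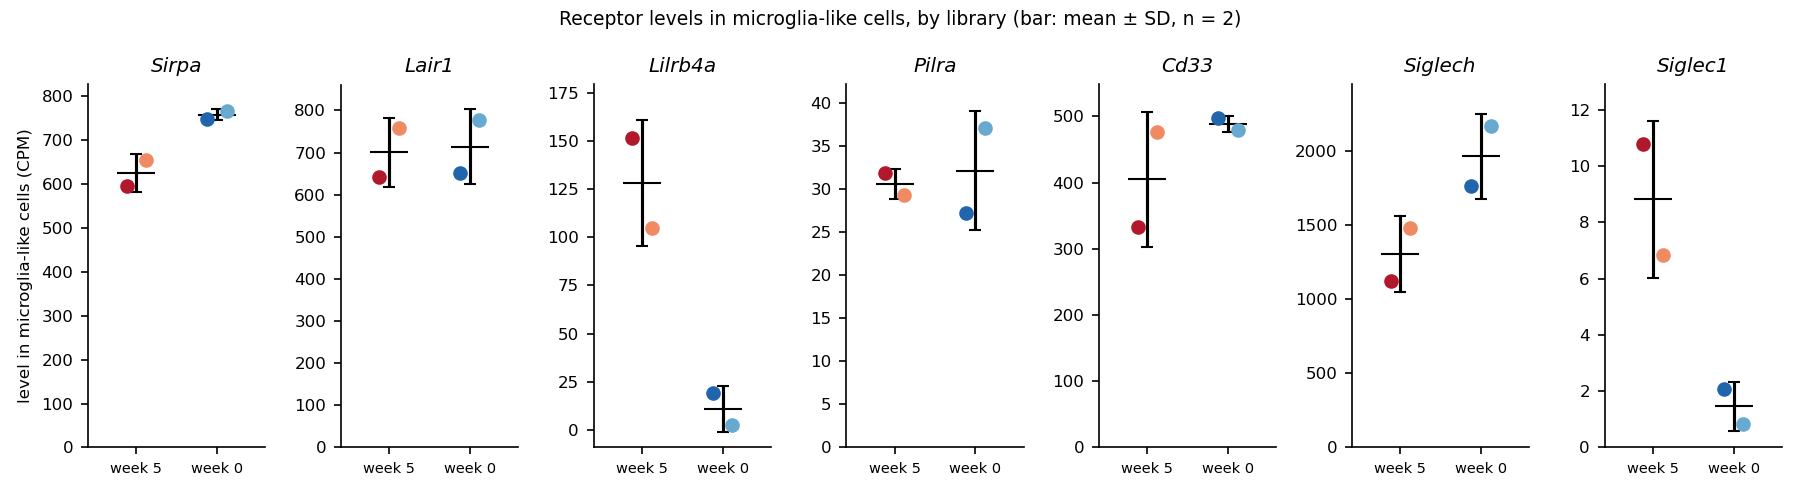
Level of each receptor in microglia-like cells (CPM, 1 axis per gene, linear scale), week 5 libraries left (red and orange points for replicates 1 and 2) and week 0 libraries right (dark and light blue points for replicates 1 and 2); bars are mean ± SD, n = 2. Lilrb4a stands at 151 and 105 CPM at week 5, against 19.4 and 2.54 CPM at week 0, while the points of Lair1 and Pilra overlap between the weeks and those of Cd33 nearly touch (477 CPM in week 5 replicate 2, against 479 CPM in week 0 replicate 2).

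Lilrb4a (ENSMUSG00000112148.1, chr10:51490956-51496611, plus strand, GRCm38) had 151 and 105 CPM in the week 5 libraries, from 771 and 322 UMIs, against 19.4 and 2.54 CPM in the week 0 libraries, from 47 and 12 UMIs. Both week 5 libraries lay above both week 0 libraries, and week 0 replicate 1 was well above replicate 2. The log2 fold change was 3.76 (SE 0.57, edgeR adjusted p = 0.00319). With DESeq2 the change was 3.58 and did not pass (adjusted p = 0.0798), and in edgeR it was 5.64 without week 0 replicate 1 and 2.73 without week 0 replicate 2. Its neighbour Lilr4b, an activating relative, has a nearly identical sequence in part. Of the 676 windows of 100 bases in the last 500 bases of Lilrb4a's annotated coding transcripts, 21.0% also occur in a Lilr4b transcript, and 83.1% in Gm49339, a gene model that spans both genes and is not analysed here. The treatment of such reads in the authors' counting is not known here, and the values of both genes are uncertain to that extent. Lilr4b had 60 and 47 UMIs at week 5 and 20 and 8 at week 0 (log2 fold change 1.62, SE 0.55, edgeR adjusted p = 0.175). Its result hung on single libraries: the adjusted p was 0.0135 without week 5 replicate 1, 0.0306 without week 5 replicate 2 and 2.24e-05 without week 0 replicate 1, and the change was 0.70 without week 0 replicate 2.

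Siglec1 (ENSMUSG00000027322.11, chr2:131069220-131086765, minus strand, GRCm38) was scarce in microglia-like cells. It had 10.8 and 6.85 CPM at week 5, against 2.06 and 0.846 CPM at week 0, and these levels rest on 55 and 21 UMIs at week 5 and 5 and 4 UMIs at week 0. The groups did not overlap, with a log2 fold change of 2.75 (SE 0.56, edgeR adjusted p = 0.0184). The call depended on single libraries: the adjusted p was 0.238 without week 5 replicate 1 and 0.145 without week 0 replicate 2, with changes of 2.35 and 2.11. The call was also lost without the Spp1-led cluster described below (log2 fold change 2.15, adjusted p = 0.0666).

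Markers of other cell types were looked at in the same sums, since Lilrb4a and Siglec1 are also genes of macrophages. The 10 border-associated macrophage markers summed to 253 and 262 CPM at week 5, against 386 and 257 CPM at week 0. At 0 UMIs were none of them in week 5 replicate 1, 3 in week 5 replicate 2, 4 in week 0 replicate 1 and 2 in week 0 replicate 2. Most of each sum came from Stab1, which had 961 and 717 UMIs at week 5 and 827 and 1076 at week 0. Individual markers did move: Ms4a7 had 167 and 43 UMIs at week 5 and 2 and 1 at week 0, and Pf4 had 271 and 2 at week 5 and 4 and 10 at week 0. Monocyte markers summed to 8.80 and 9.96 CPM at week 5, against 8.53 and 11.4 CPM at week 0. The part of Ms4a7- or Pf4-expressing cells in the rise of the 2 receptors was not tested. In sums over all these cells, more cells of a state and more RNA per cell cannot be told apart, and levels by cluster are given below.

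Among the other receptors with inhibitory motifs, Sirpa had 594.5 and 655 CPM at week 5, against 749 and 767 CPM at week 0. Its week 5 libraries both lay lower, but the difference was within what the test allows (log2 fold change -0.28, SE 0.30, edgeR adjusted p = 0.797). Lair1 had 642 and 759 CPM at week 5, against 650.5 and 777 CPM at week 0, overlapping fully (-0.03, SE 0.31). Pilra, a low gene with 162 and 90 UMIs at week 5 and 66 and 175 at week 0, had 31.8 and 29.3 CPM at week 5, against 27.2 and 37.0 CPM at week 0 (-0.09, SE 0.24). The edgeR adjusted p was 0.987 for Lair1 and 0.938 for Pilra, and the sign of both changed under some settings.

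Of the sialic acid binding receptors, Siglech had 1123 and 1485 CPM at week 5, against 1764 and 2168 CPM at week 0. All week 5 values lay below all week 0 values, with a log2 fold change of -0.59 (SE 0.37) that did not pass the test (edgeR adjusted p = 0.578). Cd33 had 333 and 477 CPM at week 5, against 497 and 479 CPM at week 0 (-0.27, SE 0.29, edgeR adjusted p = 0.802). Both of its week 5 values lay below both week 0 values, that of replicate 2 by very little. Thinning each cell to 1000 UMIs, to remove the difference in depth, left 851 and 752 cells at week 5 and 757 and 829 at week 0, after 60, 101, 145 and 69 shallower cells had been set aside in the same order. Of those cells, 59.5% and 67.4% had a Siglech UMI at week 5 and 79.0% and 87.3% at week 0. Without thinning the shares were 86.1% and 81.4% at week 5 and 87.6% and 97.3% at week 0. As a background, 17.6% of 34 thinned choroid plexus-like and oligodendrocyte-like cells, which should lack the gene, had one (24.3% of 37 unthinned). Whether these UMIs came from free RNA or from mixed droplets was not tested. The median depth was 3155 UMIs in those cells, against 6117, 2332, 1500 and 3912 in microglia-like cells of week 5 replicates 1 and 2 and week 0 replicates 1 and 2. Lilrb4a was found in 9.64% and 9.97% of thinned cells at week 5 and in 1.19% and 0.362% at week 0, against 0 of the 34 background cells, which allows a share of up to 8.82%. Unthinned, its shares were 25.1% and 14.3% at week 5 and 3.22% and 1.22% at week 0. Among the 37 unthinned background cells the share was 2.70% (1 cell), so the week 0 shares did not stand clear of the background.

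The microglia-like cells fell into states, and the receptors differed sharply among them. Leading genes named 4 clusters found almost only at week 5. The Spp1-led cluster (177 and 29 cells at week 5, 1 and 0 at week 0), with Fabp5, Cst7, Gpnmb and Igf1, and the Apoe-led cluster (94 and 46 at week 5, 3 and 2 at week 0), with Clec7a and Cd63, carry genes known from microglia near damaged tissue. The Ifit3-led cluster (90 and 53 at week 5, 5 and 5 at week 0) carries interferon-stimulated genes, and the Ccl4-led cluster (83 and 79 at week 5, 6 and 4 at week 0) chemokine and immediate early genes together with Lpl and Csf1. The Ddit4-led cluster and a pair of clusters led by Gm43221 held at least 30 cells in every library. Cells led by Fam110a and by Camk2n1, with the homeostatic genes P2ry12 and Tmem119, were mostly from week 0 replicate 2. Values by cluster are counts over the total UMIs of the cluster, given without a test because clusters are defined by the same cells.

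**Figure D2:**
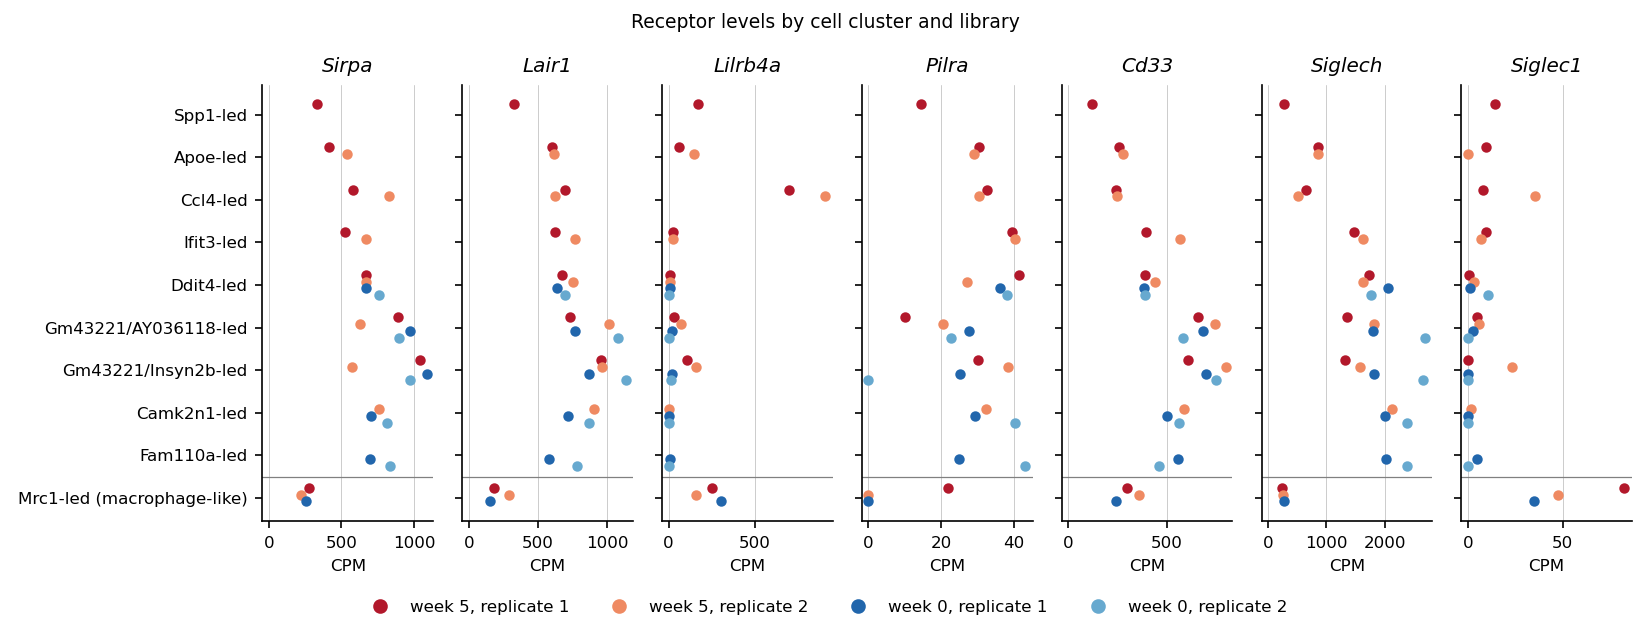
Level of each receptor (CPM, 1 axis per gene, linear scale) by cell cluster, for each library with at least 30 cells in the cluster (at least 15 for the Mrc1-led macrophage-like cluster below the grey line); red and orange points are week 5 replicates 1 and 2, dark and light blue points week 0 replicates 1 and 2. Lilrb4a is far higher in the Ccl4-led cluster (699 and 909 CPM at week 5) than in the Ddit4-led cluster (6.81 and 7.33 CPM at week 5), and Siglech is lowest among microglia-like clusters in the Spp1-led one (280.3 CPM in week 5 replicate 1).

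Lilrb4a was concentrated in a few states. At week 5 the Ccl4-led cluster had 699 and 909 CPM (258 and 180 UMIs), the Spp1-led cluster 171 and 221 CPM (426 and 41 UMIs) and the Apoe-led cluster 60.6 and 145 CPM (44 and 40 UMIs). The Ifit3-led cluster, by contrast, had 25.3 and 23.5 CPM, and the Ddit4-led cluster 6.81 and 7.33 CPM. The Ccl4-led cluster held 6.19% of the UMIs of microglia-like cells at week 5 but 40.1% of the Lilrb4a UMIs, and the Spp1-led cluster held 29.3% and 42.7%. In the Ccl4-led cluster 67.5% and 78.5% of week 5 cells had a Lilrb4a UMI, at a median of 2200 and 1686 UMIs per cell, against 2.97% and 2.87% in the Ddit4-led cluster at 6108 and 5498 UMIs per cell. Between these clusters the cells with more Lilrb4a were the shallower ones. In Spp1-led cells the share was 70.6% and 55.2% at a median of 14291 and 5174 UMIs. Some of the few week 0 cells of the same states also carried the transcript. Of 59 Lilrb4a UMIs at week 0, 12 lay in 5 Apoe-led cells (2 with a UMI) and 12 in 10 Ccl4-led cells (4 with a UMI). The 1 Spp1-led cell of week 0 had none. Week 0 replicate 1 held 22 of these 24 UMIs.

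A finer clustering (resolution 2 in place of 1) placed the peak of Lilrb4a more narrowly. It placed 110 of the 172 Ccl4-led cells, with 11 cells of other clusters, in a group led by Adam33, Cspg4, Fam20c, Fn1, Ch25h and Lpl (53 and 66 cells at week 5, 1 and 1 at week 0), and 52 in a group still led by Ccl4 and Ccl2 (26 and 17 cells at week 5, 5 and 4 at week 0). Adam33 encodes a membrane metalloproteinase, Cspg4 a chondroitin sulfate proteoglycan and Ch25h the enzyme that makes 25-hydroxycholesterol. The Adam33-led cells had 1608 and 1352 CPM of Lilrb4a at week 5, from 177 and 152 UMIs, against 274 and 332 CPM in the cells still led by Ccl4. Of the Adam33-led cells 69.8% and 80.3% had a Lilrb4a UMI, although their median depth was 1583 and 1577 UMIs, against 8427 and 5578 in the Ccl4-led group. Per cell they had 3.34 and 2.30 Lilrb4a UMIs, and Spp1-led cells, at a median of 14291 and 5174 UMIs, had 2.37 and 1.41. Siglech in the Adam33-led cells was 391 and 276 CPM. Neat1, a nuclear-retained noncoding RNA, stood at 736 and 970 CPM in them and at 104 and 113 CPM in Spp1-led cells, and its part in the Lilrb4a level was not tested. Siglec1 rested there on 2 and 6 UMIs.

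**Figure D3:**
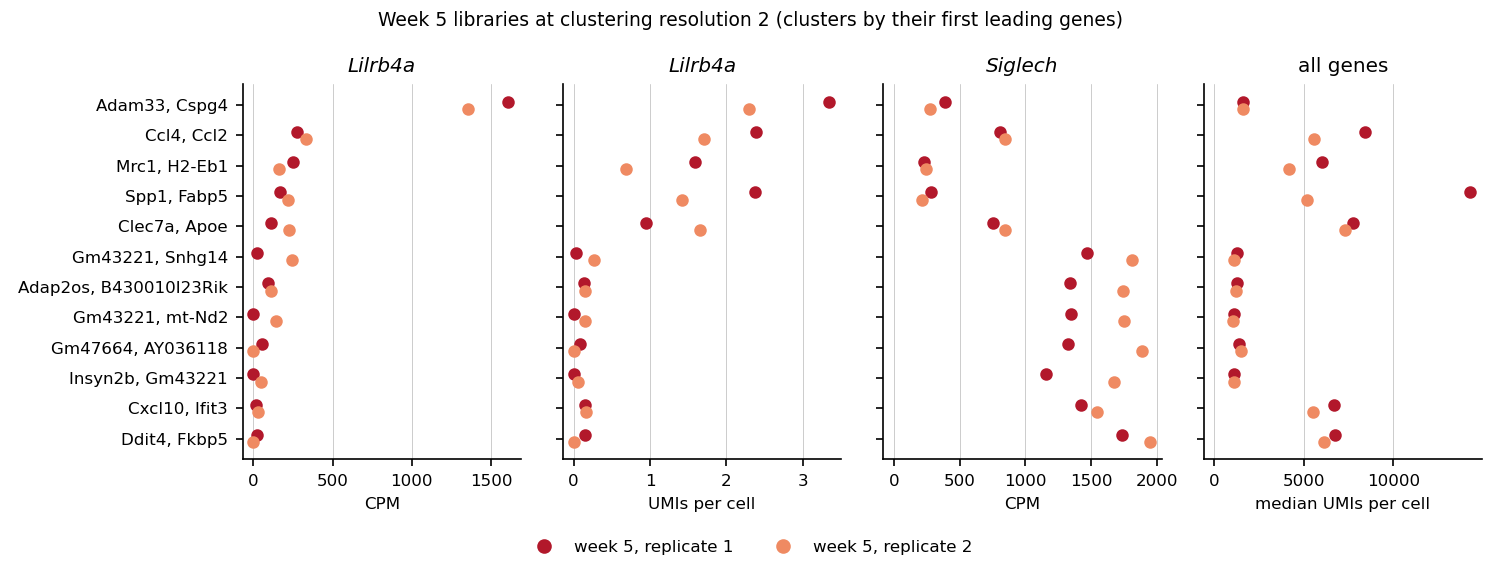
The 12 clusters of resolution 2 with the highest mean Lilrb4a among those with at least 15 cells in each week 5 library, named by their first leading genes; panels give Lilrb4a in CPM and in UMIs per cell, Siglech in CPM and the median UMIs per cell, all on linear axes, red for week 5 replicate 1 and orange for replicate 2. The Adam33-led cells have the highest Lilrb4a by either measure (1608 and 1352 CPM) at one of the lower depths (1583 and 1577 UMIs).

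Siglech ran the other way. It had 280.3 and 209.9 CPM in Spp1-led cells at week 5, 645 and 515 CPM in Ccl4-led cells and 849 and 861 CPM in Apoe-led cells. Ifit3-led cells had 1466 and 1621 CPM, and Ddit4-led cells 1720.3 and 1626 CPM. At week 0 the Ddit4-led cells had 2045 and 1764 CPM, the Fam110a-led 2017 and 2372 CPM, and the Camk2n1-led 2005 and 2378 CPM. The count per cell was lower too: Spp1-led cells held 3.95 and 1.34 Siglech UMIs each at week 5, against 10.7 and 8.93 in Ddit4-led cells, with a mean of 14111 and 6408 UMIs of all genes per cell against 6224 and 5489. In the 3 clusters that every library shared, week 5 lay below week 0 in the Ddit4-led and in the Gm43221 and Insyn2b-led cells, and the weeks overlapped in the Gm43221 and AY036118-led cells (1356 and 1818 CPM at week 5, 1791 and 2687 CPM at week 0).

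Cd33, Sirpa and Lair1 were also lowest in CPM in the Spp1-led state, but only Cd33 followed Siglech in the count per cell. Cd33 had 120 and 75.3 CPM in Spp1-led cells at week 5, 255 and 279 CPM in Apoe-led cells and 390.1 and 439 CPM in Ddit4-led cells. Per cell, Spp1-led cells held 1.69 and 0.483 Cd33 UMIs and Ddit4-led cells 2.43 and 2.41. Sirpa had 330.3 and 457 CPM in Spp1-led cells and 669 and 668 CPM in Ddit4-led cells at week 5, but per cell 4.66 and 2.93 UMIs against 4.16 and 3.67. Lair1 had 329 and 237 CPM in Spp1-led cells and 672 and 755 CPM in Ddit4-led cells, with 4.64 and 1.52 UMIs per cell against 4.18 and 4.14. In week 5 replicate 1, Spp1-led cells thus had no fewer Sirpa and Lair1 UMIs per cell than Ddit4-led cells. In replicate 2, with 29 Spp1-led cells, they had fewer. Sirpa in Ccl4-led cells (583 and 829 CPM) did not show the drop that Siglech and Cd33 showed there.

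Pilra and Siglec1 were too low for a firm order of states. Pilra had 14.4 and 16.1 CPM in Spp1-led cells at week 5, from 36 and 3 UMIs, and 41.5 and 27.2 CPM in Ddit4-led cells, from 61 and 26. Its highest levels were outside microglia, in the unnamed S100a6-led cells, whose summed markers were 7499.6 CPM for neutrophils, 5403 CPM for T and NK cells and 2187 CPM for monocytes: 167 and 66.0 CPM at week 5, against 431 and 375 CPM at week 0, from 7, 6, 14 and 4 UMIs. Siglec1 had 14.0 and 16.1 CPM in Spp1-led cells (35 and 3 UMIs) and 8.13 and 35.4 CPM in Ccl4-led cells (3 and 7 UMIs). Siglec1 is known as an interferon-inducible gene in human monocytes. In the Ifit3-led cells it had 9.49 and 6.71 CPM at week 5, from 6 and 2 UMIs. This was lower than in Spp1-led cells and higher than the 0.681 and 3.14 CPM of Ddit4-led cells. A Siglec1 UMI was found in 5.56% and 3.77% of Ifit3-led cells at week 5. The shares were 14.7% and 6.90% in Spp1-led and 0.424% and 1.15% in Ddit4-led cells. At week 0 the 5 and 5 Ifit3-led cells held 1 and 1 UMIs. The part of interferon in these levels was not tested.

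Compared only within the 3 clusters that all libraries shared, 0 of the 6 members tested passed with edgeR, where 0.631% of 9819 genes rose. At an unadjusted p under 0.05, Lilrb4a alone was higher, and no other tool was run on these sums. The log2 fold change of Lilrb4a was 1.26 (edgeR adjusted p = 0.360), against 3.76 over all microglia-like cells, and Siglec1 fell under the filter on low counts. The 2 weeks did not overlap for Lilrb4a in the Gm43221-led clusters, with 30.2 and 73.0 CPM at week 5 against 17.2 and 0 CPM at week 0 in the one with AY036118, and 106 and 161 CPM against 20.1 and 12.7 CPM in the one with Insyn2b. These are 6, 25, 7 and 21 UMIs at week 5 and 13, 0, 4 and 1 at week 0. Both clusters were shallow, with medians from 1008 to 1364 UMIs per cell over the libraries. In Ddit4-led cells the medians ran from 3670 to 6108. At resolution 2, 3 cells of the AY036118 cluster and 7 of the Insyn2b cluster fell in the Adam33-led group, where Lilrb4a was highest. The part of such cells in these differences was not tested. In the Ddit4-led cells they overlapped, at 6.81 and 7.33 CPM at week 5, against 8.07 and 0 CPM at week 0. The clusters were chosen for this comparison after the data had been seen.

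Border-associated macrophage-like cells carried the receptors in other proportions. They were few, with 29 and 25 cells at week 5 and 16 and 5 at week 0, so values are given without a test. Siglec1 had 82.3 and 47.5 CPM there at week 5, from 15 and 5 UMIs, and 34.9 and 34.0 CPM at week 0, from 3 and 1. Lilrb4a had 252 and 161 CPM at week 5, against 302 and 34.0 CPM at week 0, so that the weeks overlapped. Siglech stood at 231 and 247 CPM at week 5, against 267 and 1055 CPM at week 0, and Sirpa at 274 and 218 CPM at week 5, against 256 and 374 CPM at week 0. Choroid plexus-like cells, which should lack Siglech, had 337 CPM in week 5 replicate 1 (15 cells) and 0 UMIs in week 5 replicate 2 (5 cells) and week 0 replicate 1 (2 cells). The S100a6-led cells had 0 Siglech UMIs among 31 cells, which allows a share of up to 9.68% of cells with a UMI. Over all cells together, whatever their name, Lilrb4a rose (log2 fold change 3.18, SE 0.66, edgeR adjusted p = 0.0330) and Siglec1 missed the threshold (2.46, SE 0.56, adjusted p = 0.0518), where 2.44% of all genes rose.

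Across clusters, Cd33, Siglech, Lair1 and Sirpa varied together and Lilrb4a varied against Siglech. Over 24 sums of a cluster in a library (9 microglia-like clusters, at least 30 cells each), the Pearson correlation of log2(CPM + 10) was 0.84 between Lair1 and Cd33, 0.83 between Cd33 and Siglech, and 0.73 between Lair1 and Siglech. For Sirpa it was 0.70 with Cd33, 0.69 with Lair1 and 0.61 with Siglech. It was -0.81 between Lilrb4a and Siglech and 0.64 between Lilrb4a and Siglec1. The sums share libraries, depth and scaling, so these values describe the data and carry no test. Among 6784 genes, the patterns most like that of Siglech were Lpcat2 (0.97), Ptgs1 (0.96) and Zfhx3 (0.95), and those most like Cd33 were Nrip1, Celf2 and Dock10 (each 0.95). Most like Lilrb4a were Gas2l3 (0.93), Mfsd12 (0.92) and Plekhm2 (0.91), and most like Siglec1 were Adam33 (0.81), Samd9l (0.74) and Fam20c (0.73), of which Adam33 and Fam20c also led the cells with the highest Lilrb4a. The likest genes were Il17ra (0.90), Kdm2b (0.89) and Tgfbr1 (0.88) for Sirpa, Pik3r1, Rrbp1 (each 0.91) and 4632427E13Rik (0.90) for Lair1, and Pgp, Syap1 (each 0.87) and Hdac1 (0.86) for Pilra. Over these sums Siglec1 ran only from 0 to 35.4 CPM and Pilra from 0 to 43.0 CPM. Their correlations, that of Siglec1 with Lilrb4a included, thus rest on few UMIs.

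Promoters of Siglech, Cd33 and Lair1, which with Sirpa varied together across clusters, are shown with that of Pilra, the one in which a searched motif was found. Each runs from 250 bases before to 50 bases after the start listed for the gene, in the direction of transcription (RefSeq, GRCm38.p6). Such a promoter was listed for 4 of the 7 members. For Cd33 the printed stretch lies inside the annotated gene (chr7:43524216-43544428, minus strand) and not at its annotated start. Capitals mark a match to the core of an interferon response element, searched as GAAA, any 2 bases and GAAA again. It was searched on both strands together with GAGGAAGT, a core bound by the myeloid factor PU.1.
Siglech, chr7:55767934-55768233, plus strand: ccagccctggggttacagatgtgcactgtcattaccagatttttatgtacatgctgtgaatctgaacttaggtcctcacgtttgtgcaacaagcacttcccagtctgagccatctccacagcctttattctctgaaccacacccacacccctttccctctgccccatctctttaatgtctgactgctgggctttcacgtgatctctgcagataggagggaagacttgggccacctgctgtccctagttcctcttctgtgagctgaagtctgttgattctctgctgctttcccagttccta
Cd33, chr7:43533122-43533421, minus strand: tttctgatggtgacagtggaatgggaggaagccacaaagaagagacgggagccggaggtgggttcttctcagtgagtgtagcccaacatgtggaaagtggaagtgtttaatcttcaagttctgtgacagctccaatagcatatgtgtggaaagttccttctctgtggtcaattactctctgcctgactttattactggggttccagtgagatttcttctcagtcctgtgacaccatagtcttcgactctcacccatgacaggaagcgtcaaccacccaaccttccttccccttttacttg
Lair1, chr7:4063155-4063454, minus strand: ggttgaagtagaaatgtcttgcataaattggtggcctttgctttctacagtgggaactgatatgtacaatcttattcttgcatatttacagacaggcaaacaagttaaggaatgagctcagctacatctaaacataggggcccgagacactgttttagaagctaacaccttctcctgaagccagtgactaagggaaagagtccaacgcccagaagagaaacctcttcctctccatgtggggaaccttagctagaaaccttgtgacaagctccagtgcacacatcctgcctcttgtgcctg
Pilra, chr5:137836229-137836528, minus strand: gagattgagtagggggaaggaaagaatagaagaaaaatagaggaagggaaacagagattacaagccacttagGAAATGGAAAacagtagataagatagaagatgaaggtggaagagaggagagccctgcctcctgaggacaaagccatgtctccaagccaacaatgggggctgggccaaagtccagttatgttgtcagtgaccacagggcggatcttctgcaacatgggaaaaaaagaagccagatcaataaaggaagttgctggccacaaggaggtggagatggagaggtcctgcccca
Of these promoters, Pilra's held the interferon response core once, from base 73 on the plus strand of the printed sequence, and 3.44% of 32851 promoters of the same length hold it (1131). GAGGAAGT was in none of the 4 and in 3.20% of all promoters (1052). The Pilra level in the Ifit3-led cells was 39.5 and 40.3 CPM at week 5, from 25 and 12 UMIs, against 41.5 and 27.2 CPM in Ddit4-led cells. Ifit3-led cells were thus slightly lower in replicate 1 and higher in replicate 2. The part of the motif in these levels was not tested.

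The ligands and partners listed for the members were expressed unevenly. Of 22 listed ligands and binding partners, 13 could be tested in microglia-like cells and 4 rose, where 3.04% of all genes tested rose. The median log2 fold change was 0.27, against -0.02 over all genes tested. Apoe, reported to bind human LILRB4, rose by 6.12 on the log2 scale (SE 0.85, edgeR adjusted p = 0.00173), and the call was lost when either week 0 library was left out (adjusted p = 0.0620 without replicate 1 and 0.258 without replicate 2), where a lone week 0 library is assumed to vary like the week 5 ones. Fn1, which encodes fibronectin, also reported as a partner of that receptor, had 722 and 35 UMIs at week 5 and 1 and 0 at week 0; over the summed libraries the ratio was 663 (95% counting interval, 119 to 26228). With week 5 replicate 2 alone against week 0 the ratio was 81.6 (13.7 to 3312). With limma-voom the calls of Fn1 and Pianp were lost (adjusted p = 0.171 and 0.0958). Pianp, a known ligand of Pilra, had 46.5 and 10.1 CPM at week 5, against 1.24 and 0.635 CPM at week 0, where each library had 3 UMIs (log2 fold change 5.05, SE 0.79, edgeR adjusted p = 0.00387). Cd52 encodes a sialylated surface peptide listed for binding a human Siglec, which is not the counterpart of a member. It rose by 3.16 (SE 0.51, edgeR adjusted p = 0.00462). Week 5 replicate 1 set much of the size of these rises: without it the log2 change was 5.29 for Apoe, 3.51 for Pianp and 2.08 for Cd52. Cd47, the ligand of Sirpa, had 275 and 253 CPM at week 5, against 223 and 266 CPM at week 0 (0.11, SE 0.25), and C1qa, which encodes a chain of the Lair1 ligand C1q, had 9364 and 8666 CPM at week 5, against 6692 and 9123 CPM at week 0 (0.19, SE 0.49). Neither passed, with edgeR adjusted p = 0.922 and 0.936. With library size as the only scaling, which moved the median of all genes to -0.25, both had a negative sign.

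None of the phosphatases and adaptors of inhibitory signalling passed the test. Of 17 listed, 16 were tested (median log2 fold change 0.02), and 0 rose and 0 fell with edgeR. Over all genes tested 3.04% rose and 0.327% fell. At an unadjusted p under 0.05 there were 0 of these 16 with edgeR and DESeq2 and 1, Dok3, lower with limma-voom. Of the 16, 0 passed the adjusted threshold with any of these tools. The SHP-1 gene Ptpn6 had 177 and 139 CPM at week 5, against 125 and 170.5 CPM at week 0 (0.09, SE 0.25). For Ptpn11 the change was 0.17 (SE 0.23) and for Inpp5d -0.33 (SE 0.30). The edgeR adjusted p of these 3 ranged from 0.753 to 0.937, and the sign of Ptpn6 and Ptpn11 turned with library size as the only scaling. On the activating side, 2 of 16 adaptors and kinases rose, where 3.04% of all genes tested did. The Src family kinase Fgr rose by 2.80 on the log2 scale (SE 0.42, edgeR adjusted p = 0.00316) and the adaptor Hcst by 1.33 (SE 0.27, adjusted p = 0.0182). Tyrobp, the adaptor with which Siglech signals, had 5058 and 2370 CPM at week 5, against 1815 and 2225 CPM at week 0 (0.88, SE 0.46, adjusted p = 0.472), and it passed without week 5 replicate 2 (1.37, adjusted p = 0.00882). Fgr and Hcst did not pass in the clusters shared by all libraries (adjusted p = 0.900 and 0.302), nor did Hcst with thinned cells (0.49, adjusted p = 0.921). In Spp1-led cells Tyrobp stood at 5937 and 5941 CPM, where Siglech was lowest. None of the 19 tested genes of sialic acid synthesis, transfer and removal, of 20 listed, passed with edgeR, DESeq2 or limma-voom (median log2 fold change 0.15), and 4 were higher at an unadjusted p under 0.05 with edgeR and with limma-voom (Nagk, Nans, Neu1 and St8sia1) and 1, St8sia1, with DESeq2.

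Several genes listed as other inhibitory receptors of immune cells rose. Of 23 listed, 21 were tested, 8 rose and 1 fell, with a median log2 fold change of 0.80. The list is broad, and not every gene in it is strictly an inhibitory receptor: Cd274, among the 8, encodes a ligand. Over all genes tested 3.04% rose and 0.327% fell, with a median of -0.02. The list was drawn up with results of these libraries known, so its direction is a description. Cd300lf, a receptor for lipids and sphingomyelin, rose by 4.03 (SE 0.37, edgeR adjusted p = 0.000188), with 27.9 and 22.8 CPM at week 5, against 1.24 and 1.69 CPM at week 0. Cd72, an inhibitory receptor best known from B cells, had 77.1 and 44.7 CPM at week 5, against 9.08 and 6.35 CPM at week 0 (3.03, SE 0.34, adjusted p = 0.000458). Pdcd1, which encodes PD-1, rose by 3.50, Cd22, a sialic acid receptor of B cells and microglia, by 2.93, Ly9 by 2.25, the PD-1 ligand gene Cd274 by 2.04 and Siglecf, another Siglec, by 1.86, with edgeR adjusted p between 0.00116 and 0.00860 for these 5. Slamf9, the ninth of the list to pass, rose by 1.01 (SE 0.23). Without week 5 replicate 1 the change was 2.65 for Pdcd1, which then did not pass (adjusted p = 0.0612), and 2.31 for Cd22. In the clusters shared by all libraries, Cd300lf and Ly9 passed, and Cd72, Cd22, Cd274 and Siglecf did not, with adjusted p between 0.243 and 0.815. The gene that fell was Pecam1, an adhesion receptor with inhibitory motifs, with 10.0 and 13.0 CPM at week 5, against 33.0 and 23.3 CPM at week 0 (-1.28, SE 0.29, adjusted p = 0.0308). Its call was lost in 5 of 18 other settings: without week 0 replicate 1 (-1.04, adjusted p = 0.104), with DESeq2 (0.0529), without the Ifit3-led cluster (0.0643), with thinned cells (0.495) and in the shared clusters (0.692). Of the lymphocyte markers listed, Cd3e, Cd3d, Trac and Cd79a were among those at 0 UMIs in the microglia-like sums of every library. The 10 markers of T and NK cells nevertheless summed to 46.9 and 37.5 CPM at week 5, against 10.3 and 12.5 CPM at week 0, nearly all of it Ccl5 (247 and 86 UMIs at week 5, 2 and 6 at week 0) and Klrd1, and 6 of the 10 were at 0 throughout. The 6 markers of B cells summed to 166 and 199 CPM at week 5, against 272 and 283 CPM at week 0. Most of this was Ighm, with 894 and 532 UMIs at week 5 and 542 and 1098 at week 0. Cd79b had 124 and 68 UMIs at week 5 and 63 and 149 at week 0.

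**Figure D4:**
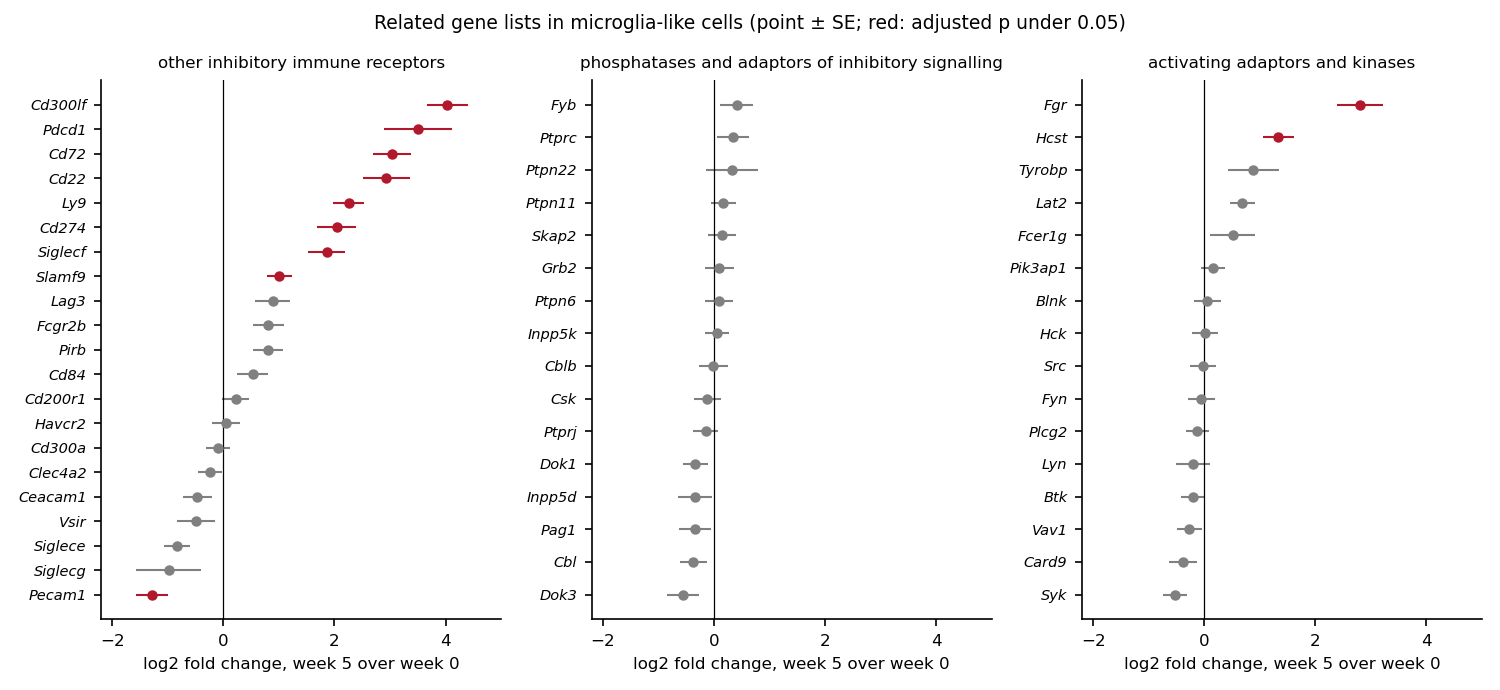
log2 fold change of week 5 over week 0 in microglia-like cells (point ± SE, edgeR) for other inhibitory receptors, phosphatases and adaptors of inhibitory signalling, and activating adaptors and kinases; red points have an adjusted p under 0.05. Among the genes listed as inhibitory receptors, of which Cd274 encodes a ligand, 9 points are red, 8 of them above 0. Among the phosphatases and adaptors none is red.

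The listed activating relatives, not all of which pair with a member, were mostly too low to test. Of 18 listed, 13 fell under the filter, among them Pilrb1, Pilrb2 and the Sirpb1 genes. Of the 5 tested, 2 rose, where 3.04% of all genes tested did. These 2, Cd300lb and Treml2, are not partners of a member. Lilr4b, the neighbour of Lilrb4a, did not pass (edgeR adjusted p = 0.175). Cd300lb had 55 and 12 UMIs at week 5 and 0 and 3 at week 0; the ratio was 19.6 (95% counting interval, 6.41 to 97.3). Treml2 also rose, with a log2 change of 1.38 (SE 0.33, edgeR adjusted p = 0.0450). The rise of Cd300lb was no longer called once week 5 replicate 1 was left out (adjusted p = 0.382), and over all cells it missed the threshold (0.0527). The call of Treml2 was lost in 8 of 18 other settings, among them those without week 5 replicate 1 (0.97, adjusted p = 0.126) and without week 0 replicate 1 (1.07, adjusted p = 0.0797). Lilra5 (0.07) and Nfam1 (-0.41) did not pass.

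The Lilrb4a difference was smallest in the clusters shared by all libraries and largest without week 0 replicate 1, among the settings run.

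**Figure D5:**
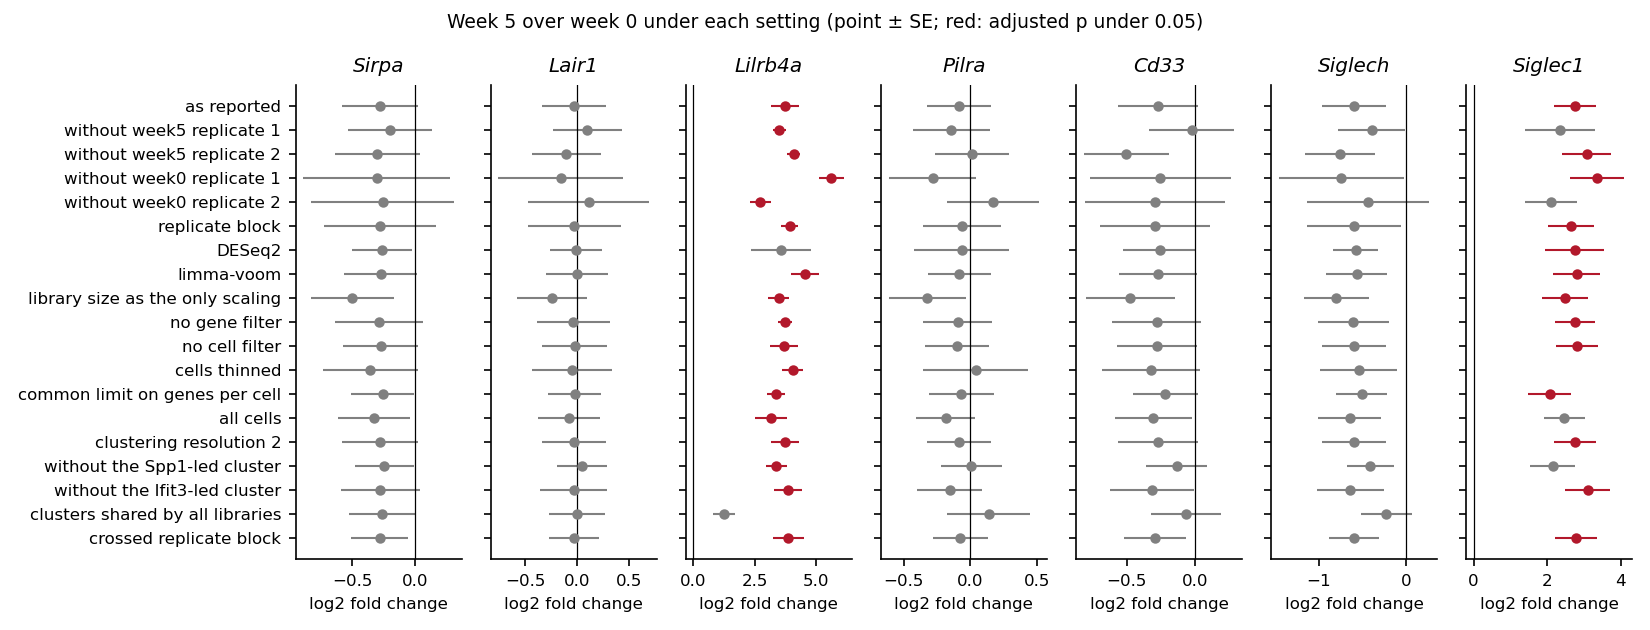
log2 fold change of week 5 over week 0 for each receptor (columns, separate axes) under each setting (rows, point ± SE); red points have an adjusted p under 0.05. Lilrb4a ranges between 1.26 (clusters shared by all libraries) and 5.64 (without week 0 replicate 1), and Siglech stays below 0 in every setting, between -0.80 and -0.22, without passing the threshold.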

How the data were processed

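Single-cell RNA of CD11b-sorted corpus callosum cells was read from the 3′ end with a 10x Genomics kit (v3.1), per the labels. The deposited tables, 1 per library, hold raw UMI counts as whole numbers. The submitters' processing notes name Cell Ranger 3.0.0, STAR, Seurat 4 and mm10 without saying what each did, and the choice of the 1000 barcodes in a table is not stated. Cells reached at most 3999 and 2996 genes at week 5 and 2999 and 6615 at week 0.

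Barcodes with 500 or more genes and no more than 10% mitochondrial UMIs were kept (3728 of 4000), and scrublet removed 21 doublets (0.563%). Counts were scaled to 10000 per cell, log-transformed, reduced to 30 components of 2000 variable genes without the members and their relatives, joined to 15 neighbours and clustered (Leiden, resolution 1, scanpy 1.11.5) into 13 clusters. Clusters were named from listed markers; the thresholds of the naming rule, such as summed microglia markers of at least 5 times those of any other type, were set after the clusters had been seen.

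UMI counts were summed per library over microglia-like cells. edgeR 4.0.16 (quasi-likelihood test, TMM factors, filterByExpr, Benjamini-Hochberg adjustment) compared week 5 with week 0, n = 2 each, with a call at an adjusted p under 0.05. SE is the size of the log2 fold change over the square root of F. DESeq2 1.42.0 and limma-voom (limma 3.58.1) were alternatives. CPM of these sums uses the effective library size, and CPM by cluster the total UMIs. Intervals (95%) and floors (3 counts) cover counting error only. On 5 simulated data sets of 11002 genes with 200 changed genes at a mean of at least 20 CPM, 49.4% of 2-fold changes and 99.6% of 4-fold ones were recovered, and 9.05% of calls were false, above the nominal level.

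The members, the related lists and the comparisons were chosen with earlier results of these data known. Named genes are the 7 members, the genes of each list that passed (up to 8 by size), 7 genes always named (Cd47, Tyrobp, Ptpn6, Ptpn11, Inpp5d, C1qa and Lilr4b), and the 3 genes most like each member among those with a mean of at least 20 CPM. Adam33-led cells, Slamf9, marker genes and genes that did not pass were named after their values had been seen.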

Additional observations from a re-analysis of the deposited data

How the results depend on the processing

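The comparison called 371 genes, and other settings called 828 with no gene filter (15568 tested), 156 with cells thinned to 1000 UMIs, 63 in the clusters shared by all libraries, and 298 to 1460 with a library left out, the highest without week 5 replicate 2. With library size as the only scaling 74.6% of the calls were upward (318 against 108), where 90.3% had been, and the typical gene shifted to -0.25 (median, log2). Of the members, 2 were called; DESeq2, thinning, all cells together and leaving out the Spp1-led cluster each gave 1, the shared clusters gave 0, and leaving out a library gave 1 to 2. For Lilrb4a the log2 fold change was 3.58 with DESeq2 (adjusted p = 0.0798) and 1.26 in the shared clusters (0.360), and in the other 16 settings it passed. For Siglec1 it was 2.46 over all cells (0.0518), 2.15 without the Spp1-led cluster (0.0666), and 2.11 to 3.35 with a library left out, where it missed the threshold without week 5 replicate 1 and without week 0 replicate 2; it fell under the filter on low counts when thinned and in the shared clusters. The sign of Lair1 turned with limma-voom (9.6e-05), without the Spp1-led cluster (0.044) and with a library left out (-0.16 to 0.11). That of Pilra turned when thinned (0.041), without the Spp1-led cluster (0.0077), in the shared clusters (0.14) and with a library left out (-0.28 to 0.17). Library size as the only scaling gave -0.12 for Cd47, -0.042 for C1qa, -0.15 for Ptpn6 and -0.054 for Ptpn11; Ptpn6 was also -0.023 when thinned, -0.017 without the Spp1-led cluster and -0.050 in the shared clusters, and Lilr4b was -0.36 there. With a library left out, Cd47 ranged between -0.019 and 0.25, C1qa between -0.027 and 0.43 and Ptpn6 between -0.12 and 0.34. No other sign among the named genes turned in the settings run. Of the named genes other than members, 31 calls were lost, 12 signs turned and 7 calls were gained in 408 comparisons with the values reported. The level of Lilrb4a in Ccl4-led cells at week 5 (773 CPM) was 291 at resolution 2 and 345 with a common limit of 2996 genes per cell, and that of Siglech in Spp1-led cells (275 CPM) was 189 with that limit. The clusters did not hold the same cells in these settings. At week 5 the Ccl4-led cluster had 162 cells, against 43 at resolution 2 and 29 with that limit. Resolution 2 placed 110 of its 172 cells in the Adam33-led group, where Lilrb4a was highest. The Spp1-led cluster had 206 cells at week 5, against 99 with that limit. These are thus levels of different sets of cells, and no other source of the shifts was tested.

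With the replicate number as a block 501 genes were called, among them Lilrb4a (3.93) and Siglec1 (2.65); the block added a call for Lilr4b (adjusted p = 0.00623). Samples of the same number deviated oppositely (correlation -0.142). Depth also ran oppositely between the weeks, so this value cannot decide whether the numbers pair the libraries. A crossed replicate block gave 466 calls. The crossed block, the shared clusters and the fits without the Spp1-led or the Ifit3-led cluster were chosen after seeing the data. With 2 libraries a group, whose depths differ within each group, changes in genes with few UMIs, such as Siglec1 and Pilra, could not be resolved finely.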
